A study of Mus musculus with 4 samples.

Results

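The prostaglandin synthesis and receptor genes examined here are 10 named genes, the cyclooxygenases Ptgs1 and Ptgs2, the terminal synthases Ptges, Ptgis, Ptgds and Hpgds, the inactivating dehydrogenase Hpgd, and the prostaglandin E2 receptors Ptger2, Ptger3 and Ptger4. Members were all probe sets annotated to exactly 1 of these symbols, which gave 16 probe sets for 9 genes, out of 18193 genes with such an annotation on the array. Ptgs1, the constitutive cyclooxygenase, has no probe set under its name in the annotation used here and was not analysed. The brightest probe set stood for each gene, and all 9 genes passed the filter on brightness that left 12797 genes for testing.

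Lesion RNA was measured on 4 Affymetrix 3′ arrays, 2 from mice on a high-fat diet (HFD-1 and HFD-2, high-fat diet replicates 1 and 2) and 2 from mice on a casein diet, labelled as the control (CAS-1 and CAS-2, casein diet replicates 1 and 2). All 4 samples are endometriotic lesions, which are implants of endometrium at sites other than the uterus. Strain, genotype, age, length of feeding and the way lesions were made are not given in the labels used here, nor whether an array holds 1 animal or a pool. P-values therefore measure only the spread between these 4 samples, which may be technical.

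Prostaglandins are made from arachidonic acid, which phospholipases free from membranes. Cyclooxygenases turn it into prostaglandin H2, and terminal synthases convert that intermediate into prostaglandin E2, prostacyclin or prostaglandin D2, which act on G protein-coupled receptors before they are inactivated by oxidation. In endometriosis, the inducible cyclooxygenase Ptgs2 and prostaglandin E2 are known for their links with pain, inflammation and local estrogen production.

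The arrays differed in tissue content. Gastric mucosa markers had a summed intensity of 457.5 and 480 in high-fat diet replicates 1 and 2, against 72114 and 10491 in casein diet replicates 1 and 2. Skeletal muscle markers summed to 26986 in high-fat diet replicate 1 and to between 653.2 and 910.8 in the other 3 arrays. Casein diet replicate 1 exceeded every other array by at least 2-fold for 280 tested genes, against 77 for high-fat diet replicate 1, 60 for high-fat diet replicate 2 and 14 for casein diet replicate 2. Values with 1 array left out are therefore given for the prostaglandin genes and for many of the other genes named. Uterine identity genes were bright in all 4 arrays: the estrogen receptor gene Esr1 read 3319 and 4046 on the high-fat diet and 3800 and 3775 on the casein diet, and the uterine patterning gene Hoxa10 read 1886 and 1521, against 647.2 and 1547. In bulk tissue of this kind, fewer cells of a type and less RNA per cell cannot be told apart.

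None of the prostaglandin genes passed limma's test with p-values adjusted by Benjamini-Hochberg over 12797 genes (0 of 9, adjusted p between 0.863 and 0.997), and neither did any other gene (0%, smallest adjusted p = 0.823). Ptgs2 and Ptgis had lower intensities in both high-fat diet arrays than in both casein diet arrays (2 of 9, beside 19.3% of all tested genes), and Hpgds had higher ones (1 of 9, beside 16.6%). The diets overlapped for the other 6 genes. These 3 of 9 genes (33.3%) stand against 36.0% of all tested genes whose diets did not overlap, so the share was near the background. At an unadjusted p under 0.05 there were 2 of 9 genes, beside 4.97% of all genes tested: Ptgis among the lower ones (2.73% of all genes) and Hpgds among the higher ones (2.24%). The unadjusted limma p of Hpgds was 0.0517 with another variance prior. Which genes these were also depended on single arrays. Leaving out high-fat diet replicate 1 gave Ptgs2 and Ptgis (2 of 9, beside 3.37% of all genes), and leaving out high-fat diet replicate 2 gave Ptgs2 (1 of 9, beside 4.49%). Leaving out casein diet replicate 1 gave Ptger3 (1 of 9, beside 3.91%), and leaving out casein diet replicate 2 gave Ptger2 and Ptger3 (2 of 9, beside 14.3%). In each of these fits 1 diet is a single array, assumed to vary like the arrays of the other diet. Ptger3 was at -0.76 without casein diet replicate 1 and at 0.80 without casein diet replicate 2. The log2 differences, taken as high-fat minus casein, had a median of 0.019 over the 9 genes and of -0.005 over all genes, with 5 of the 9 above 0 and 4 below. Of all 12797 tested genes, 6216 were above 0 and 6571 below, the background for the counts of signs given here. With 2 arrays against 2, an exact two-sided permutation test cannot give a p under 0.333, so the tests of single genes rest on limma's fit to the whole table.

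**Figure D1:**
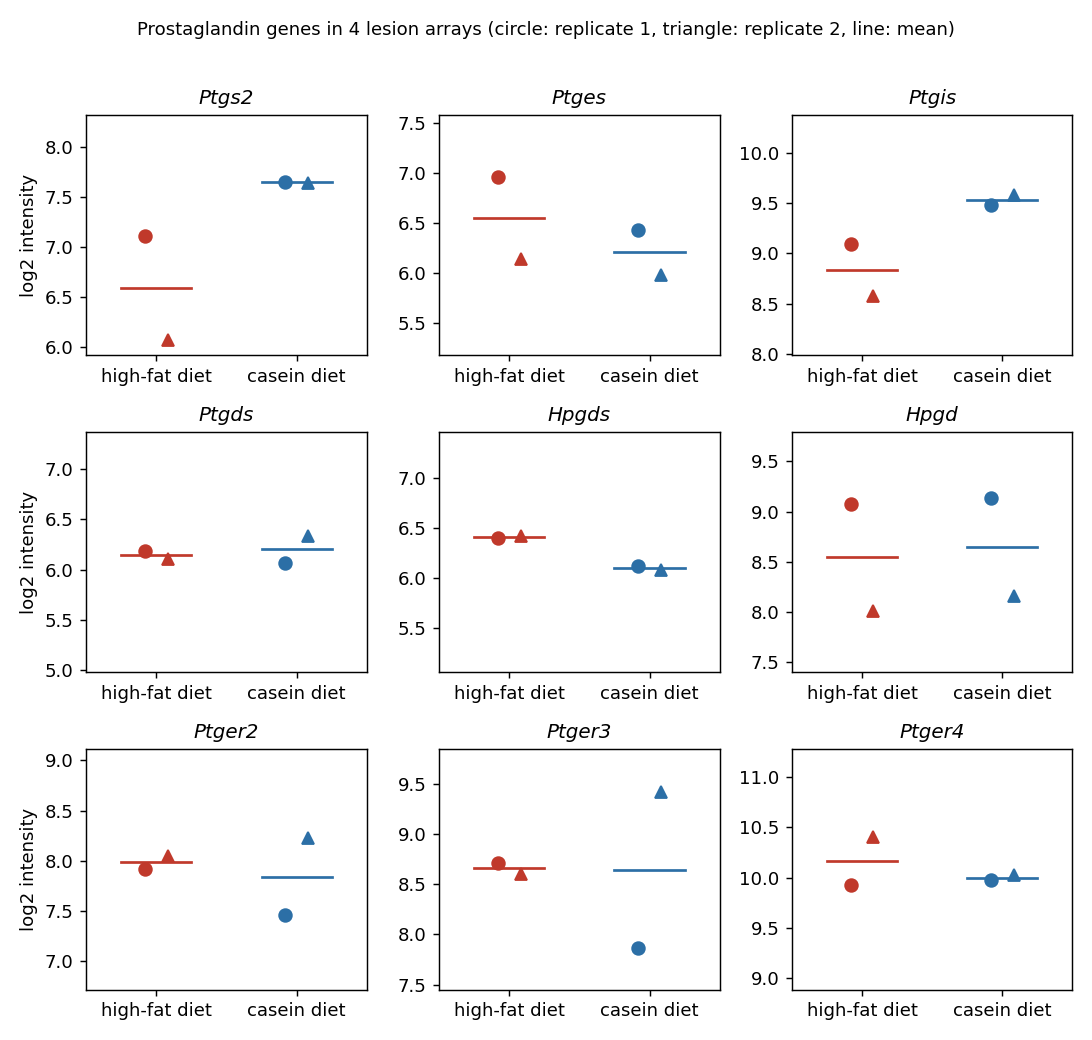
Log2 intensity (y axis) of the brightest probe set of each of 9 prostaglandin genes in the 2 high-fat diet arrays (left, red) and the 2 casein diet arrays (right, blue), with circles for replicate 1, triangles for replicate 2 and lines for the diet means; every panel spans the same log2 range. Both high-fat diet points lie below both casein diet points for Ptgs2 and Ptgis and above them for Hpgds, and Hpgd splits by replicate number rather than by diet.

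Ptgs2, the inducible cyclooxygenase that commits arachidonic acid to the pathway, read 138.0 and 67.2 in the high-fat diet arrays, against 200.8 and 199.4 in the casein diet arrays. The casein diet arrays were nearly equal, whereas high-fat diet replicate 1 was 2.05 times high-fat diet replicate 2. The log2 difference was -1.06 (SE 0.39, 95% interval -2.15 to 0.041, limma unadjusted p = 0.0556, adjusted p = 0.863), an intensity ratio of 0.481. It was the only one of the 9 genes to differ by more than 2-fold, as did 3.17% of all tested genes. The difference was under 2-fold with a pseudocount of 16 (-0.93) and with the mean of all probe sets (-0.71). Leaving out casein diet replicate 1 gave -1.05, and leaving out casein diet replicate 2 gave -1.06. It was -1.58 when high-fat diet replicate 1 was left out and -0.54 when high-fat diet replicate 2 was. The other Ptgs2 probe set was dim, at 9.64 and 5.95 on the high-fat diet and 9.97 and 9.50 on the casein diet, below the brightness filter, and differed by -0.36.

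The promoter of Ptgs2 is shown for its match to the core of the cyclic AMP response element. Of 11 tested cyclic AMP-responsive genes, 5 also had both high-fat diet arrays below both casein diet arrays, beside 19.3% of all tested genes. Counting either direction, the diets did not overlap for 45.45% of the list, beside 36.0% of all tested genes. Prostaglandin E2 acts through cyclic AMP at Ptger2 and Ptger4, which differed by 0.15 and 0.16 with overlapping diets. A link between these genes and Ptgs2 was not tested. The RefSeq window (GRCm38.p6, chr1:150099781-150100080, plus strand) runs 5′ to 3′ from 250 bases before the annotated start to 50 after it. Capitals mark TTGCGCAA, a palindrome of the kind bound by C/EBP factors, and CGTCACGTG, in which CGTCA, the core of the cyclic AMP response element, overlaps the E-box CACGTG.
Ptgs2: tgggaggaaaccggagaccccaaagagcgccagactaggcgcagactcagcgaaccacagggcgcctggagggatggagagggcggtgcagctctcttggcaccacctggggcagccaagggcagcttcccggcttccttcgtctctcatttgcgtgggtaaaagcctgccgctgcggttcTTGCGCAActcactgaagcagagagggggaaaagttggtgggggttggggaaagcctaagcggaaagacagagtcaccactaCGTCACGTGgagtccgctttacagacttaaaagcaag
Both strands of 32851 RefSeq windows of 300 bases were searched. TTGCGCAA was found in 0.183% of them, CACGTG in 7.15% and CGTCA in 20.8%, while the full element TGACGTCA, in 1.79%, was not found in the window of Ptgs2. Windows were listed for 9 of the 10 genes, all but Ptgis, and among these CGTCA occurred only in that of Ptgs2. In the Ptgs2 window the C/EBP-type palindrome began at position -69 from the annotated start. The overlapping core and E-box began at positions 14 and 17 from the annotated start. The start used in these lesions was not measured, so these positions do not show whether the matches are transcribed. A match is a description of the letters and says nothing about binding in these lesions.

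Ptgis, prostacyclin synthase, an enzyme prominent in vascular and uterine smooth muscle, read 545.6 and 382.7 on the high-fat diet, against 716.7 and 765.2 on the casein diet. Both high-fat diet arrays lay below both casein diet arrays. The log2 difference was -0.70 (SE 0.21, 95% interval -1.29 to -0.11, limma unadjusted p = 0.0311, adjusted p = 0.863), a ratio of 0.617. It ranged from -0.95, with high-fat diet replicate 1 left out, to -0.44, with high-fat diet replicate 2 left out, and was -0.74 with casein diet replicate 1 left out. Smooth muscle markers ran the same way: all 8 of 8 had negative differences, 6 of 8 without overlap (beside 19.3% of all tested genes in that direction), with a median of -0.76. Their summed intensity was 15866 and 13199 on the high-fat diet and 21503 and 25578 on the casein diet, and none was dim, the lowest being Myocd at 150.1. Endothelial markers, the other vascular list, ran the opposite way, 8 of 8 above 0 with a median of 0.55 (0.27 with casein diet replicate 1 left out) and sums of 2436 and 2544, against 1371 and 1895. The part of either cell type in the Ptgis difference was not tested.

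The prostaglandin E and D synthases had smaller differences. Ptges, the microsomal prostaglandin E synthase that works with Ptgs2, read 124.8 and 70.6 on the high-fat diet, against 86.2 and 63.2 on the casein diet. Its highest value was in high-fat diet replicate 1 and the diets overlapped (log2 difference 0.35, SE 0.35, limma adjusted p = 0.872). The difference rested on that array, since leaving it out gave -0.065, and leaving out high-fat diet replicate 2 gave 0.76. Neutrophil markers were also highest in high-fat diet replicate 1. Their sums were 5253 and 1438 on the high-fat diet and 1167 and 1785 on the casein diet. Most of the highest sum was S100a8, at 3477 and 687.7, against 464.5 and 849.4. Skeletal muscle markers were highest in that array as well (26986, against 653.2 to 910.8 elsewhere). The part of either list was not tested. The 2 dimmer Ptges probe sets differed by 0.25 and 0.057.

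Hpgds, the hematopoietic prostaglandin D synthase of mast cells, macrophages and some T cells, had the smallest SE of the 9 genes. It read 84.9 and 85.7 on the high-fat diet, against 69.9 and 67.9 on the casein diet. Arrays of a diet differed by less than the diets did, and the log2 difference was 0.31 (SE 0.090, 95% interval 0.054 to 0.56, limma unadjusted p = 0.0286, adjusted p = 0.863), a ratio of 1.24. When 1 array was left out it ranged from 0.29 to 0.33. Macrophage markers had positive differences for 8 of 10 genes. Their median was 0.067 (-0.044, with 3 of 10 positive, when high-fat diet replicate 1 was left out). Sums were 31369 and 24960 on the high-fat diet and 26690 and 26241 on the casein diet. The 2 negative ones were Mrc1 (-0.12, SE 0.099) and Cd163 (-1.06, SE 0.105), the largest difference of the list. Cd163 read 24.0 and 23.8 on the high-fat diet, below the filter level, against 47.2 and 52.5 on the casein diet. Mast cell markers were mostly dim: 6 of 10, among them Mcpt4, Ms4a2 and Fcer1a, were below the brightness filter. Cma1 and Cpa3, the mast cell protease genes tested, were dim as well: Cma1 read 27.8 and 37.9 on the high-fat diet, against 58.0 and 69.4 on the casein diet, and Cpa3 read 23.3 and 43.3, against 49.4 and 55.7. Both averaged below the filter level of 33.9 on the high-fat diet and passed through the casein diet arrays. The list summed to 1771 and 2142 on the high-fat diet and 882.7 and 2659 on the casein diet, and most of each sum was the histidine decarboxylase gene Hdc, at 1372 and 1758, against 485.7 and 2249. Hdc differed by 0.57 (-0.54 with casein diet replicate 1 left out) and Kit by 0.25. The part of these cells in the Hpgds difference was not tested.

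Ptgds, the lipocalin-type prostaglandin D synthase, read 72.9 and 68.7 on the high-fat diet, against 66.9 and 80.9 on the casein diet. The casein diet arrays enclosed the high-fat diet arrays, with a log2 difference of -0.056 (SE 0.14, 95% interval -0.44 to 0.33, limma adjusted p = 0.948).

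Hpgd encodes the dehydrogenase that starts the inactivation of prostaglandins. It read 540.8 and 257.3 in high-fat diet replicates 1 and 2, against 560.9 and 285.4 in casein diet replicates 1 and 2. Within each diet the arrays differed by about 2-fold (ratios of 2.10 and 1.97), far more than the diets did (log2 difference -0.10, SE 0.53, 95% interval -1.61 to 1.41, limma adjusted p = 0.980). The sign depended on which array was left out, with values from -0.64 to 0.43. A dimmer probe set had the same order, at 36.8 and 24.4 on the high-fat diet and 35.1 and 26.4 on the casein diet. The brighter Hpgd probe set carries the suffix that Affymetrix gives to sets matching several transcripts, so its signal may not come from Hpgd alone.

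**Figure D2:**
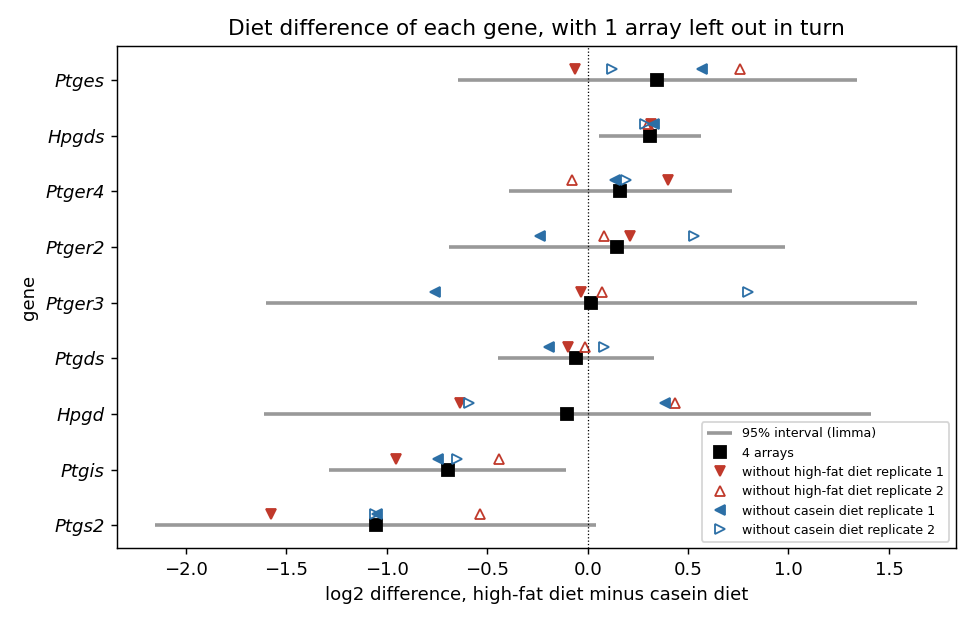
Log2 difference, high-fat diet minus casein diet (x axis), of 9 prostaglandin genes (y axis), with black squares for all 4 arrays, grey bars for limma's 95% interval and triangles for the value with 1 array left out. The interval includes 0 for 7 of 9 genes; the triangles of Ptgs2, Ptgis and Hpgds stay on the side of the square, whereas those of Ptger3 spread from -0.76 to 0.80.

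The prostaglandin E2 receptors differed less between diets than between the casein diet arrays or, for Ptger4, the high-fat diet arrays. Ptger4, which couples to cyclic AMP, read 970.9 and 1353 on the high-fat diet, against 1005 and 1043 on the casein diet, a log2 difference of 0.16 (SE 0.20, 95% interval -0.39 to 0.72, limma adjusted p = 0.884). Its highest value was in high-fat diet replicate 2, and the difference was -0.076 without that array. A dimmer probe set of Ptger4 had the same highest array (124.1 and 183.0 on the high-fat diet, 147.8 and 131.7 on the casein diet) and a difference of 0.11.

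Ptger2, the other receptor coupled to cyclic AMP, read 242.3 and 265.1 on the high-fat diet, against 175.6 and 298.5 on the casein diet. The casein diet arrays were the lowest and the highest of the 4, and the log2 difference was 0.15 (SE 0.30, 95% interval -0.69 to 0.98, limma adjusted p = 0.931). Ptger3, the receptor that lowers cyclic AMP, read 419.6 and 389.4 on the high-fat diet, against 232.6 and 683.9 on the casein diet. Casein diet replicate 2 was thus 2.94 times casein diet replicate 1, with both high-fat diet arrays between them. The log2 difference of 0.019 (SE 0.57, 95% interval -1.60 to 1.64, limma adjusted p = 0.997) became -0.76 when casein diet replicate 1 was left out and 0.80 when casein diet replicate 2 was, and that of Ptger2 became -0.24 and 0.53. The sum of the endometrial stroma markers was also lowest in casein diet replicate 1. It was 22131 and 22283 on the high-fat diet and 19322 and 22501 on the casein diet. Of the 10 markers, Pgr, Esr1, Col1a1 and Dcn were not lowest there, and Pgr was highest there, at 2761. Differences were positive for 7 of 10 (6 of 10 without casein diet replicate 1). The part of these markers in the receptor values was not tested.

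**Figure D3:**
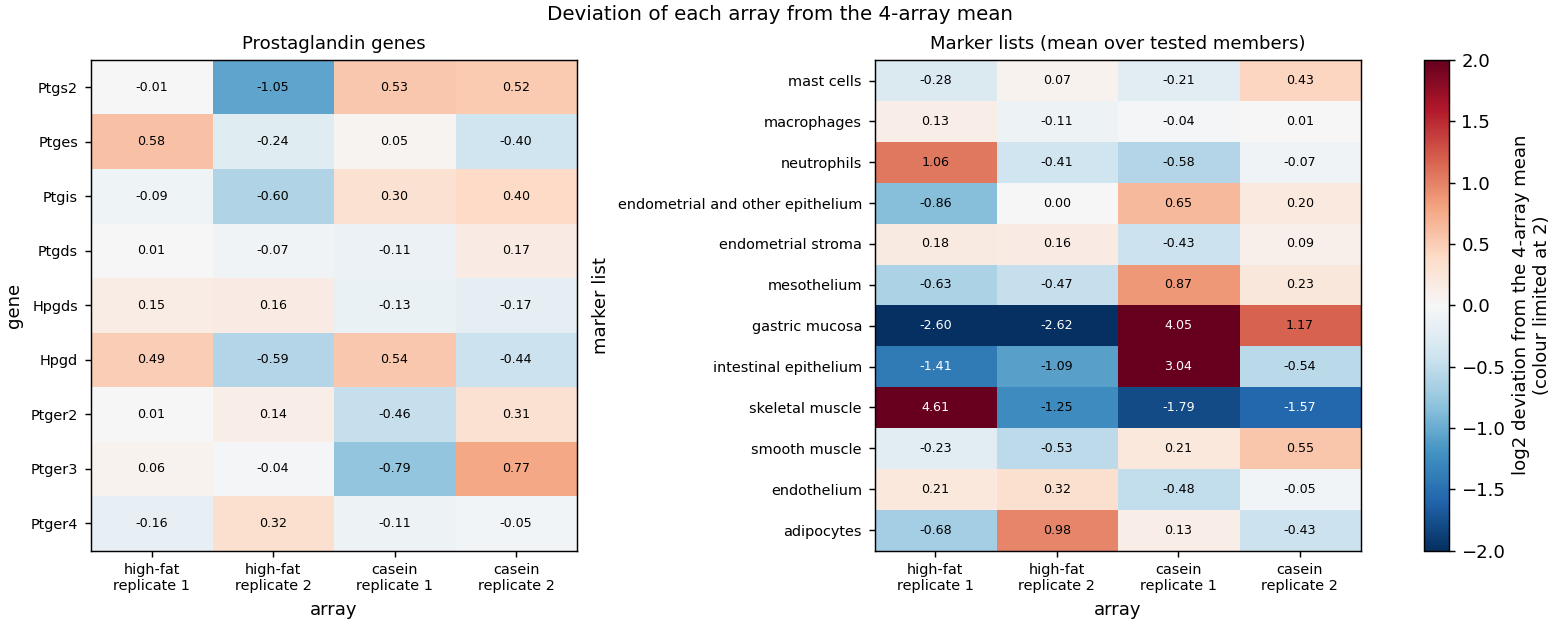
Log2 deviation of each array (columns, 2 high-fat diet arrays left of 2 casein diet arrays) from the 4-array mean, for 9 prostaglandin genes (left) and for the mean of the tested members of 12 marker lists (right); the colour is limited at 2 and the cells give the values. Gastric markers reach 4.05 in casein diet replicate 1 and skeletal muscle markers 4.61 in high-fat diet replicate 1, while the smooth muscle list is below 0 in both high-fat diet arrays (-0.23 and -0.53) and above it in both casein diet arrays (0.21 and 0.55). Some gastric and skeletal muscle markers, such as Gkn1 and Myh1, passed the brightness filter only through the arrays where they were high.

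Upstream of the cyclooxygenases, 3 of 10 tested genes of arachidonate release had positive and 7 negative differences, with a median of -0.086 (0.027 with high-fat diet replicate 1 and 0.023 with casein diet replicate 2 left out), and 0 passed limma's test (1 of 10 at an unadjusted p under 0.05, beside 4.97% of all genes). Pla2g4a, the cytosolic phospholipase that supplies cyclooxygenases, read 541.7 and 833.0 on the high-fat diet, against 621.9 and 795.1 on the casein diet (log2 difference -0.066, SE 0.27, or between -0.38 and 0.24 with 1 array left out). Pla2g2d, a secreted phospholipase of lymphoid tissue, read 56.4 and 87.9, against 150.7 and 131.1, with a difference of -0.998 (SE 0.26, limma adjusted p = 0.863). Both high-fat diet arrays were below both casein diet arrays for Pla2g2d, and the value stayed between -1.32 and -0.68 when 1 array was left out. The lysosomal phospholipase gene Pla2g15 and Pla2g12a differed by 0.31 (SE 0.17) and -0.29 (SE 0.18), and by 0.12 and -0.094 with high-fat diet replicate 1 left out.

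Of the other prostanoid synthases and reductases, 8 of 8 tested genes had negative differences, beside 6571 of all 12797 tested genes. Their median was -0.47, and 0 passed (1 of 8 at an unadjusted p under 0.05, beside 4.97% of all genes). Diets did not overlap for 3 of the 8 (37.5%, beside 36.0% of all genes), namely Akr1c14, Ptges2 and Tbxas1. The thromboxane synthase gene Tbxas1 read 175.1 and 143.8 on the high-fat diet, against 218.1 and 179.8 on the casein diet, and the prostaglandin E synthase gene Ptges2 read 107.8 and 112.8, against 156.4 and 129.8. Their differences were -0.32 (SE 0.17) and -0.37 (SE 0.13), and -0.18 and -0.23 with casein diet replicate 1 left out. The largest difference was that of the aldo-keto reductase gene Akr1c14, at 507.9 and 332.6 against 1976 and 812.6 (-1.62, SE 0.52, limma adjusted p = 0.863, or -0.98 with casein diet replicate 1 left out and -2.27 with casein diet replicate 2 left out). Akr1b8, Cbr1 and Cbr3 had their highest values there too, 1132, 804.7 and 805.4, and no other array exceeded 458.2, 384.7 and 336.1. With casein diet replicate 1 left out, the median of the list was -0.21 and 7 of 8 differences were negative; with casein diet replicate 2 left out it was -0.87, and with high-fat diet replicate 2 left out -0.73. With high-fat diet replicate 1 left out it was -0.48, and 6 of 8 differences were negative, Akr1c18 and Cbr2 being positive at 1.75 and 0.20. Gastric markers summed to 72114 in casein diet replicate 1. In casein diet replicate 2, where they summed to 10491, Akr1b8 and Cbr1 read 455.3 and 371.9, each between its high-fat diet values. Cbr3 read 307.7, below both of its high-fat diet values. Akr1c14, at 812.6 in that array, was above both of its high-fat diet values, as were Ptges2 and Tbxas1. The part of gastric tissue was not tested.

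Among genes of prostaglandin transport and breakdown, 1 of 6 had a positive and 5 a negative difference (median -0.23, or between -0.38 and -0.061 with 1 array left out), and 0 passed (1 of 6 at an unadjusted p under 0.05, beside 4.97% of all genes). Slco3a1, an organic anion transporter that carries prostaglandins, read 185.3 and 204.6 on the high-fat diet, against 273.9 and 288.6 on the casein diet. The diets were well apart for Slco3a1 (-0.53, SE 0.11, limma unadjusted p = 0.00859, adjusted p = 0.863), and the value stayed between -0.60 and -0.46 when 1 array was left out. Ptgr1, a prostaglandin reductase, read 509.5 and 416.3, against 4103 and 623.0, so that its difference of -1.80 (SE 0.996) became -0.44 without casein diet replicate 1. The efflux transporter gene Abcc4 differed by 0.42 (SE 0.30, or 0.12 with high-fat diet replicate 2 left out), and the uptake transporter gene Slco2a1 read 247.0 and 146.8, against 369.9 and 150.0 (-0.31, SE 0.55, or between -0.96 and 0.34 with 1 array left out). Of 6 other prostanoid receptors, the prostaglandin F and D receptor genes Ptgfr, Ptgdr and Ptgdr2 were below the brightness filter, and Ptger1, Ptgir and Tbxa2r differed by 0.015, -0.004 and -0.086.

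**Figure D4:**
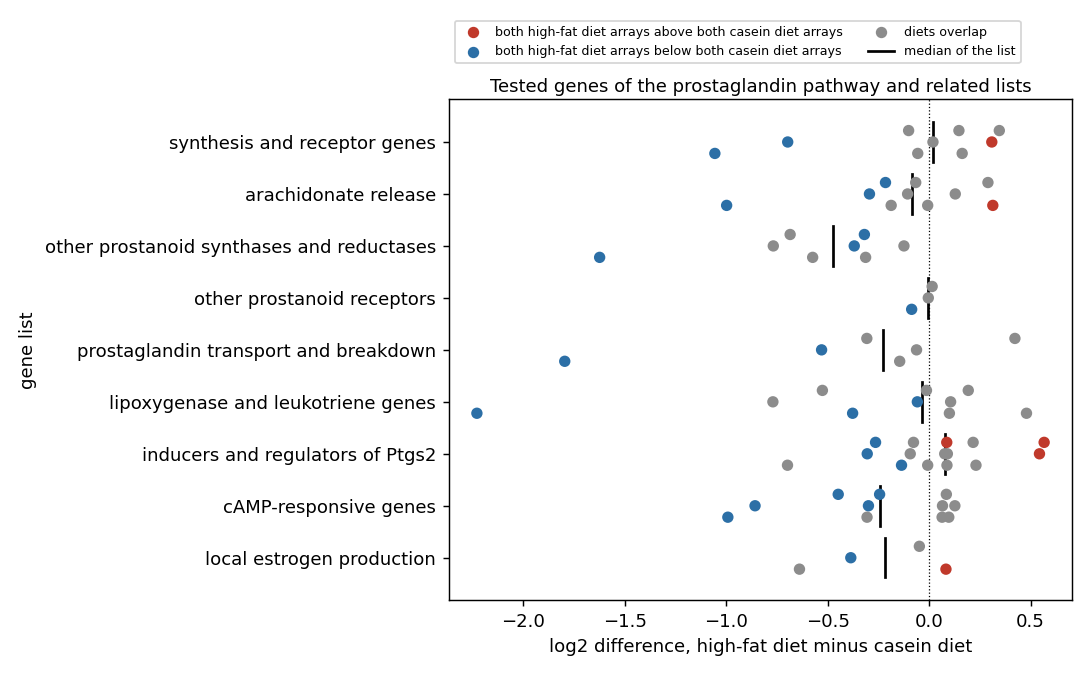
Log2 difference, high-fat diet minus casein diet (x axis), of every tested gene in 9 lists (y axis); points are red where both high-fat diet arrays lie above both casein diet arrays, blue where both lie below and grey where diets overlap, and black bars mark list medians. The other prostanoid synthases and reductases all lie below 0 with a median of -0.47, and the synthesis and receptor genes are spread around 0 with a median of 0.019.

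Known inducers and regulators of Ptgs2 were divided, with 8 of 15 above 0, 7 below and a median of 0.077 (-0.12, with 10 of 15 below 0, when high-fat diet replicate 1 was left out), and 0 passed (0 also at an unadjusted p under 0.05). The interleukin 1 genes did not share the diet order of Ptgs2: Il1b read 418.6 and 214.9 on the high-fat diet, against 215.6 and 309.1 on the casein diet, and Il1a read 48.5 and 69.4, against 42.4 and 36.2 (log2 differences 0.22, SE 0.41, and 0.57, SE 0.22). With 1 array left out, Il1b ranged from -0.26 to 0.70 and Il1a from 0.31 to 0.82. Il1rn, the interleukin 1 receptor antagonist, differed by 0.54 (SE 0.21, or 0.29 with casein diet replicate 1 left out), and Egr1, an early growth response factor, by -0.30 (SE 0.17, or -0.12 with high-fat diet replicate 2 left out).

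Genes responsive to cyclic AMP, the second messenger of Ptger2 and Ptger4, had 5 of 11 positive and 6 of 11 negative differences, with a median of -0.24 (-0.024 with high-fat diet replicate 2 left out). With high-fat diet replicate 1 left out, 1 of 11 was positive and 10 of 11 negative, and 3 or 4 were positive with another array left out. None passed limma's adjusted test, and 4 of 11 had an unadjusted p under 0.05, all with negative differences, beside 2.73% of all genes in that direction. The nuclear receptor gene Nr4a3 read 121.1 and 102.3 on the high-fat diet, against 223.1 and 182.5 on the casein diet (log2 difference -0.86, SE 0.16, limma adjusted p = 0.861). Its relative Nr4a2 read 140.0 and 131.5, against 342.1 and 212.8 (-0.99, SE 0.27), and the cyclic AMP response modulator gene Crem read 99.7 and 99.7, against 143.0 and 129.2 (-0.45, SE 0.10). Both high-fat diet arrays lay below both casein diet arrays for these 3 genes and for the phosphatase gene Dusp1 (-0.30, SE 0.095) and the polyamine enzyme gene Odc1 (-0.24, SE 0.094). These 5 of 11 genes (45.45%) stand beside 19.3% of all tested genes in that direction and 36.0% in either direction. Differences were -0.71, -0.65, -0.37 and -0.35 with casein diet replicate 1 left out and -0.98, -1.04, -0.45 and -0.31 with high-fat diet replicate 1 left out, in the order Nr4a3, Nr4a2, Crem and Dusp1. Nr4a1, which read 202.0 and 136.8 against 200.1 and 210.9, overlapped (-0.31, SE 0.22, or -0.024 with high-fat diet replicate 2 left out).

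Stretches of the RefSeq windows of Nr4a2 (chr2:57124100-57124213, minus strand), Nr4a3 (chr4:48045064-48045172, plus strand) and Nr4a1 (chr15:101266603-101266820, plus strand), all GRCm38.p6, are set beside that of Ptgs2 to compare their core matches. Each runs 5′ to 3′ on the strand of the gene, and capitals mark CGTCA or its reverse complement TGACG.
Nr4a2: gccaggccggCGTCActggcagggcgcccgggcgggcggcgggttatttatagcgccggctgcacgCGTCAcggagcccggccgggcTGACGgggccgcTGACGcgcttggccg
Nr4a3: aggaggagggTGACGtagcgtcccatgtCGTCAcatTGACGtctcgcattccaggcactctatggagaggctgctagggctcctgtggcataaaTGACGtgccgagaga
Nr4a1: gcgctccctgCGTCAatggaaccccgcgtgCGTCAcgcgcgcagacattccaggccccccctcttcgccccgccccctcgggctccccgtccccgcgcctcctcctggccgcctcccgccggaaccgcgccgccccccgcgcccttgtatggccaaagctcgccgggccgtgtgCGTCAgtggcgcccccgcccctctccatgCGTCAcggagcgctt
Each of these windows held 4 core matches, where 0.231% of all windows held 4 or more, and that of Ptgs2 held 1. The matches of the Nr4a genes lay at positions -233 to -40 from their annotated starts. Annotated starts can differ from the starts used in a tissue, so positions were not compared between these genes and Ptgs2. The counts of matches were not tested against the diet differences. Windows of other cyclic AMP-responsive genes, such as Dusp1 and Odc1, were not counted singly. No window was listed for Crem, so it was not searched.

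Over the 4 arrays, the tested genes with log2 profiles closest to Ptgs2, each centred on its own mean, were Hspb7, Ifitm6 and Agtr2, at root mean square distances of 0.17, 0.18 and 0.20. Hspb7, a small heat shock protein gene, read 219.4 and 129.0 on the high-fat diet, against 304.4 and 281.1 on the casein diet. Ifitm6, of the interferon-induced transmembrane family, read 69.7 and 45.1, against 116.6 and 97.4, and Agtr2, an angiotensin II receptor gene, read 72.9 and 29.2, against 71.5 and 83.6. High-fat diet replicate 2 was the lowest array for all 3, as for Ptgs2. With 4 points and 12797 genes such likeness is a description only.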

How the data were processed

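Lesion RNA (0.1 µg input, per the labels' protocols) was labelled with biotin and hybridised to 4 Affymetrix arrays. The authors deposited 1 linear intensity for each probe set and array, already scaled between arrays, as the near-equal array medians of 55.1 to 56.5 show. GCOS and RMA are named in the submitters' processing notes, with versions, roles and order not given in the sources used here. Such scaling hides a shift shared by most genes. No detection calls, scan dates or slides were used.

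Log2 was taken with no pseudocount. Of 45101 probe sets, 64 were controls, 34945 were annotated to 1 gene symbol by the platform table and could be named; 932 with several symbols and 9160 without were left out. Genes were kept where the mean log2 value of their brightest probe set reached the 40th percentile of non-control probe sets (intensity 33.9). Of the 16 prostaglandin probe sets, 4 were below this level.

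The diets, taken from sample titles, were compared with limma 3.58.1 (R 4.3.3), lmFit and eBayes, two-sided, with Benjamini-Hochberg adjustment over 12797 genes (1.80 prior and 3.80 total degrees of freedom), after the code was tested on simulated data. Standard errors (SE) are moderated. The number of arrays limits the precision. Members and lists were chosen with earlier results of these data known. Named genes were all members, list genes with an unadjusted p under 0.05 or otherwise those of smallest p, the 3 nearest profiles to Ptgs2, and markers; further list genes were named after their values were seen. Symbols without a probe set of their own, such as Ptges3, Areg and Cyp19a1, were not analysed here. Alternatives tried were a replicate block, 2 normalisations, 2 filters, a pseudocount of 16, other uses of probe sets, another variance prior, and leaving out each array. Sequences are from RefSeq (GRCm38.p6); no build is named for the arrays, so gene coordinates are not given. Figures were drawn with matplotlib 3.10.9.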

Additional observations from a re-analysis of the deposited data

How the results depend on the processing

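No prostaglandin gene passed the adjusted test under any of 9 other settings or when each array was left out (smallest adjusted p = 0.209). Under those 9 settings 77 of 78 member values kept their sign, the exception being Ptgds, 0.058 with the mean of all probe sets. When 1 array was left out, 28 of 36 values kept their sign. Ptgs2, Ptgis and Hpgds kept theirs throughout. The ranges of the others were -0.065 to 0.76 for Ptges, -0.19 to 0.082 for Ptgds, -0.64 to 0.43 for Hpgd, -0.24 to 0.53 for Ptger2, -0.76 to 0.80 for Ptger3 and -0.076 to 0.40 for Ptger4. The median over the 9 genes ranged from -0.19 to 0.12, the lowest without casein diet replicate 1. The number of genes passing ranged from 0 to 17, the 17 coming without casein diet replicate 2, where casein diet replicate 1 stood alone for its diet and was assumed to vary like the high-fat diet arrays; the cause was not tested. Of the 9 genes, 5 to 7 had diets that did not overlap with 1 array left out, beside 61.7% to 77.3% of all genes, and 1 to 2 had an unadjusted p under 0.05, beside 3.37% to 14.3%; these counts were added after seeing the data. At an unadjusted p under 0.05 there were 1755 with every probe set as a feature, more features than the 12797 genes behind 636, and 1825 without casein diet replicate 2. With the replicate number as a block, 0 genes passed and 576 had an unadjusted p under 0.05, none of them a prostaglandin gene (limma unadjusted p = 0.05025 for Ptgis and 0.072 for Hpgds). Hpgds also missed that level with the trend and robust prior (limma unadjusted p = 0.0517). Ptgs2 reached it with every probe set as a feature (limma unadjusted p = 0.0457, adjusted p = 0.851). The shared numbers are not stated to pair samples, and deviations of same-numbered arrays had a correlation of -0.022 over genes. With no detection calls, dim probe sets may understate differences. Those of Ptges, Ptgds and Hpgds were above the filter used but below the alternative filter at the 60th percentile.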

Other observations

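A few other genes ran by replicate number, like Hpgd. Akr1c18, which encodes an enzyme that inactivates progesterone and can make prostaglandin F, read 33.6 and 453.6 in high-fat diet replicates 1 and 2, against 45.3 and 399.1 in casein diet replicates 1 and 2 (log2 difference between diets -0.12, SE 1.78). Hpgd ran the opposite way by number, at 540.8 and 257.3 against 560.9 and 285.4. The epithelial claudin gene Cldn3 read 441.2 and 1235, against 338.8 and 1314, and the secreted epithelial protein gene Wfdc2 read 1435 and 2755, against 1496 and 2874. These genes were picked after their values were seen, and the epithelial list as a whole did not run by number: 9 of its 10 genes had negative differences between diets (median -0.73, or between -1.27 and -0.27 with 1 array left out). The keratin gene Krt8, for example, read 1080 and 1796, against 10010 and 2729.

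Of the genes of local estrogen production, which prostaglandin E2 is known to stimulate in human endometriotic stroma, the steroidogenic regulator gene Star read 126.5 and 65.9 on the high-fat diet, against 121.0 and 167.2 on the casein diet (-0.64, SE 0.39, or -0.17 with high-fat diet replicate 2 left out). Star was lowest in high-fat diet replicate 2, as was Ptgs2. Cyp19a1 had no probe set of its own, and Hsd17b1 and Hsd17b2 were below the brightness filter. The list also held steroid receptor genes. Of these, the progesterone receptor gene Pgr read 2032 and 2068, against 2761 and 2600 (-0.39, SE 0.094, limma adjusted p = 0.863). Both high-fat diet arrays lay below both casein diet arrays for Pgr. Esr1 differed by -0.048 (between -0.19 and 0.095 with 1 array left out). The dim gene Nr5a1, at 46.3 and 46.35 against 43.63 and 43.85, differed by 0.083. Of the lipoxygenase and leukotriene genes, 4 of 10 had positive and 6 negative differences (median -0.036, or -0.20 with high-fat diet replicate 2 and 0.027 with casein diet replicate 1 left out). The leukotriene C4 synthase gene Ltc4s read 36.1 and 36.9, against 51.9 and 43.2 (-0.38, SE 0.13, or -0.24 with casein diet replicate 1 left out), and the lipoxygenase gene Alox15 read 535.4 and 385.2, against 486.7 and 878.1 (-0.53, SE 0.36, or -0.10 with casein diet replicate 2 left out). Mgst2 read 138.6 and 127.0, against 1715 and 225.5, and its difference of -2.23 (SE 1.07) was -0.77 without casein diet replicate 1.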
